A study of Caenorhabditis elegans with 3 samples.

Results

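The comparison described here sets the DCC mutant directly against the 8rex deletion, the 2 mutant genotypes of a study of X chromosome expression in Caenorhabditis elegans embryos. Its members are the loci of the deposited RNA-seq table that carry a gene identifier and average at least 1 FPKM over the 3 genotypes. These were 15628 of 40669 loci, 2939 on X and 12689 on the autosomes. The DCC mutant (strain TY0810) carries the allele sdc-2(y93) and was grown on bacteria that express sdc-2 RNAi. The 8rex deletion (strain TY5827) lacks 8 recruitment sites on X through the alleles rex-8(y737), rex-14(y738) and rex-32(y572), together with rex-33(y743), rex-35(y740), rex-43(y741) and, further, rex-47(y671) and rex-48(y742). It was grown on bacteria with the empty RNAi vector, as was wild type (strain N2), whose values are printed beside those of the mutants. The labels name 3 replicates for the DCC mutant, 5 for the 8rex deletion and 5 for wild type, each a pool of many embryos. Older embryos came, in all genotypes, from adults of 68 to 70 hours, and the age of the other adults is given only as gravid.

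In hermaphrodite embryos, which have a pair of X chromosomes, the dosage compensation complex (DCC) binds X and lowers its transcription. SDC-2 brings the complex to X, where it is loaded at rex sites (recruitment elements on X) and spreads to other sites. The complex contains a condensin, and at rex sites it also shapes how the chromosome folds. SDC-2 has a further role in sex determination, as a repressor of the autosomal male-fate gene her-1. A genotype with an sdc-2 mutation and sdc-2 RNAi and a genotype with fewer rex sites therefore touch the same pathway at different steps. The comparison asks how their expression of X and autosomes differs.

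The authors' table holds a single pooled FPKM value (fragments per unit length of transcript, with libraries scaled to a common size) for each genotype and locus. There is no spread between replicates and no test of the DCC mutant against the 8rex deletion. Differences below are log2(FPKM + 1) of the DCC mutant minus that of the 8rex deletion, a scale that understates differences of low genes, and positive values mean higher in the DCC mutant. Where a p is printed, it is the authors' own for 1 mutant against wild type. It is the deposited p-value and not their q-value, and the genes were picked from many loci. Depth per library is unknown. The pools differ in embryo stage. Of the DCC mutant replicates 1 of 3 (33.3%) came from older embryos, which were taken from young adults and left to develop for 7 to 8 hours at 20 °C before freezing, against 3 of 5 (60%) in the 8rex deletion and 3 of 5 (60%) in wild type, so genotype and stage cannot be told apart in any difference between the mutants. The RNA is from whole embryos, where fewer cells of a type and less RNA per cell cannot be told apart either. Marker genes of embryonic tissues were detected in both mutants, except that the endoderm gene end-3 stood at 1.83 FPKM in the DCC mutant and was listed at 0 in the 8rex deletion. The 4 gut markers at loci of their own summed to 24.3 FPKM in the DCC mutant and 28.8 FPKM in the 8rex deletion. Summed FPKM over markers at loci of their own was 311 in the DCC mutant and 332 in the 8rex deletion for 3 body wall muscle genes, and 454 and 398 for 4 neuron genes in the same order. Such sums were 268 and 201 for 4 pharynx loci, 79.2 and 52.7 for 2 germ cell genes, and 76.8 and 90.4 for 3 epidermis loci. Sperm and yolk genes were near 0, with 30 of 31 major sperm protein genes at 0 in the DCC mutant, 28 in the 8rex deletion, and 6 yolk genes summing to 1.19 FPKM in the DCC mutant and 1.55 FPKM in the 8rex deletion.

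The gene targeted in the DCC mutant, sdc-2 (WBGene00004746, X, 11522707 to 11533450 in the ce11 assembly), stood at 11 FPKM in the DCC mutant, 16 FPKM in the 8rex deletion and 18 in wild type. The transcript was thus 1.46-fold lower in the DCC mutant than in the 8rex deletion, although X-linked genes as a group went the other way. The transcript level does not measure SDC-2 protein. The remaining subunit gene on X, sdc-1, had 40.4 FPKM in the DCC mutant, 22.4 FPKM in the 8rex deletion and 24 in wild type. The autosomal subunit genes differed little between the mutants. The condensin gene dpy-27 had 107 FPKM in the DCC mutant and 110.3 FPKM in the 8rex deletion, dpy-28 had 28.5 and 28.7 FPKM in the same order, and dpy-21, which encodes a histone H4 lysine 20 demethylase, had 63.9 and 66.2 FPKM. The shared condensin subunit gene mix-1 stood at 71.0 FPKM in the DCC mutant and 61.3 FPKM in the 8rex deletion. Of the 7 subunit loci that hold no other gene, 2 were higher and 5 lower in the DCC mutant, with a median of -0.04. With both genotypes scaled to equal autosomal sums, dpy-21, dpy-27, dpy-28 and this median turned to the other side of 0, the median to 0.03. The genes sdc-3, dpy-30 and capg-1 lay at loci that join them with neighbours, so their own levels are not known, and dpy-26 lay at a locus of its own and at a joined locus.

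Most X-linked genes stood higher in the DCC mutant than in the 8rex deletion, along the whole chromosome, and autosomal genes were centred near 0. Over all loci used, the median difference was 0.51 on X (interquartile range 0.00 to 0.81) and -0.04 on the autosomes (interquartile range -0.46 to 0.27). The distance between X and autosomes was 0.55, or 1.47-fold. Of all loci used, 8.63% were more than 2-fold higher in the DCC mutant and 14.5% more than 2-fold lower. Among the 10837 loci that hold 1 protein-coding gene and nothing else, the median of the 1782 on X was 0.60 (interquartile range 0.33 to 0.82), and that of the 9055 on autosomes was -0.04 (interquartile range -0.37 to 0.29), a distance of 0.63 or 1.55-fold. Of these loci, 19.3% were more than 1.5-fold higher in the DCC mutant, 15.2% were more than 1.5-fold lower and 52.9% lay above 0. On X the shares were 52% higher (926 loci) and 5.67% lower (101 loci), against 12.9% higher and 17% lower on the autosomes. In all, 87.5% of X-linked single-gene loci lay above 0, against 46.1% of autosomal ones. The share of the summed FPKM that came from X at these loci was 16.5% in the DCC mutant, 11.4% in the 8rex deletion and 11.6% in wild type.

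Each mutant can also be set beside wild type, a sample that both comparisons share. The median over X-linked single-gene loci was 0.56 for the DCC mutant over wild type and -0.04 for the 8rex deletion over wild type. Over the autosomal single-gene loci it was -0.04 for the DCC mutant and -0.01 for the 8rex deletion. The DCC mutant had the highest of the 3 values at 84.2% of the X-linked loci and the lowest at 7.86%. On the autosomes it had the highest value at 36.4% and the lowest at 44.0%. The DCC mutant lay at least 1.5-fold above both other genotypes at 41.4% of the X-linked loci and at 9.77% of the autosomal loci (885 loci).

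The difference on X was narrow in size among well expressed genes. When the single-gene loci were cut into 4 equal groups by mean FPKM, the X-linked medians from the lowest to the highest group were 0.37, 0.62, 0.64 and 0.61, and the autosomal medians were -0.29, -0.04, 0.02 and 0.00. Without a pseudocount, at loci above 0 in both mutants, the X-linked medians were 0.61, 0.71, 0.66 and 0.62, and the autosomal medians -0.38, -0.04, 0.02 and 0.00. In the highest group, from 40.3 FPKM upwards, 97.3% of 450 X-linked loci lay above 0, with an interquartile range of 0.48 to 0.75. Of these 450 loci, 395 (87.8%) were between 1.2-fold and 2-fold higher in the DCC mutant, against 435 of 2259 autosomal loci (19.3%) of the same level.

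**Figure D1:**
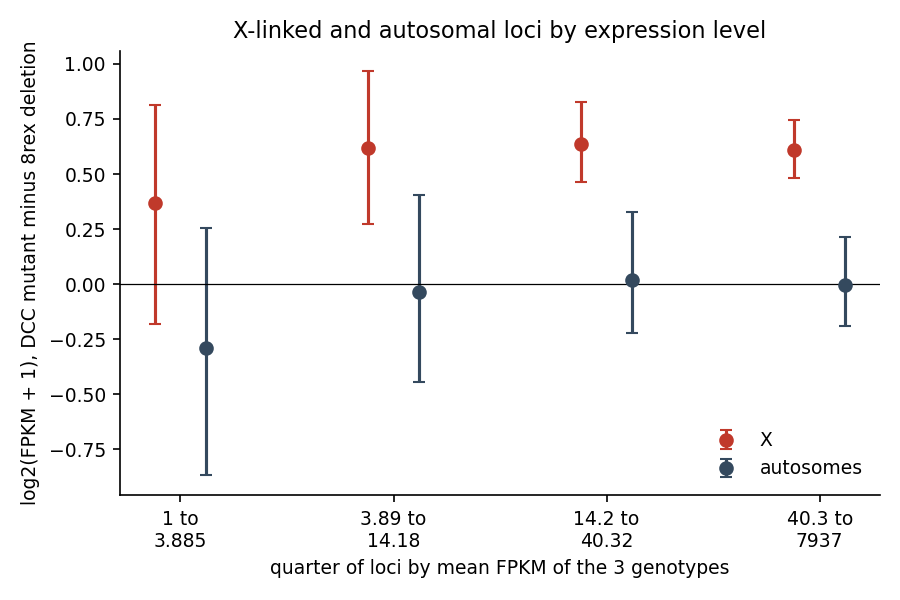
Median difference between the DCC mutant and the 8rex deletion in log2(FPKM + 1), with bars for the interquartile range over loci, for X-linked and autosomal single-gene protein-coding loci in 4 equal groups by mean FPKM. The X-linked medians run from 0.37 in the lowest group to 0.64 in the group above the middle, and the range over loci narrows with level on both.

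The X-linked genes at the edges of that highest group can be named. There were 12 that lay below 0 and 30 that were more than 2-fold higher, against 14.9% more than 2-fold higher over X-linked single-gene loci of every level. These genes were picked after their values were seen. The nuclear hormone receptor gene nhr-17 was the lowest, with 27.1 FPKM in the DCC mutant, 67.6 FPKM in the 8rex deletion and 63.2 in wild type. The bHLH factor gene mxl-3 had 36.3 FPKM in the DCC mutant, 54.5 FPKM in the 8rex deletion and 55.3 in wild type. The cuticle collagen gene dpy-3 had 362 FPKM in the DCC mutant, 365 FPKM in the 8rex deletion and 381 in wild type, so it stood almost level in the 3 genotypes. On the high side, the pharyngeal myosin gene myo-2 (WBGene00003514, X, 12468061 to 12475348) had 93.1 FPKM in the DCC mutant, 42.8 FPKM in the 8rex deletion and 36.2 in wild type. This 2.18-fold difference is larger than the typical difference on X. The locus of the developmental timing gene lin-14, which it shares with a pair of non-coding genes, had 1849 FPKM in the DCC mutant, 561 FPKM in the 8rex deletion and 247 in wild type, so there the 8rex deletion lay between the others. Other X-linked genes long used as readouts of dosage compensation differed less. The actin gene act-4 stood at 1423 FPKM in the DCC mutant and 1179 FPKM in the 8rex deletion, and lin-15A, a gene of vulval development, at 35.5 and 19.6 FPKM in the same order.

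The difference was spread along the whole of X. In windows of 1 Mb with at least 20 single-gene loci, the 18 X-linked medians ran from 0.50 to 0.67, with a median of 0.59. The 84 autosomal windows ran from -0.43 to 0.21, with a median of -0.04. All 18 X-linked windows lay above the highest autosomal window. On X the highest values were 0.67 in the windows from 11 to 12 Mb and from 12 to 13 Mb, and the lowest was 0.50 in the last window, from 17 to 18 Mb. The 8rex deletion over wild type stayed between -0.10 and 0.03 in these 18 windows, and the DCC mutant over wild type between 0.40 and 0.63. The middle of X (the inner 50% of its length) had a median of 0.63 over 936 loci and the ends 0.57 over 846 loci. Autosomal ends were also lower than autosomal middles, by most on V, where the ends had -0.19 and the middle -0.03. Chromosome V held the lowest autosomal windows, -0.43 from 17 to 18 Mb and -0.43 from 2 to 3 Mb. Without the chemoreceptor genes, many of which lie there, the median of V was -0.07, against -0.10 with them.

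**Figure D2:**
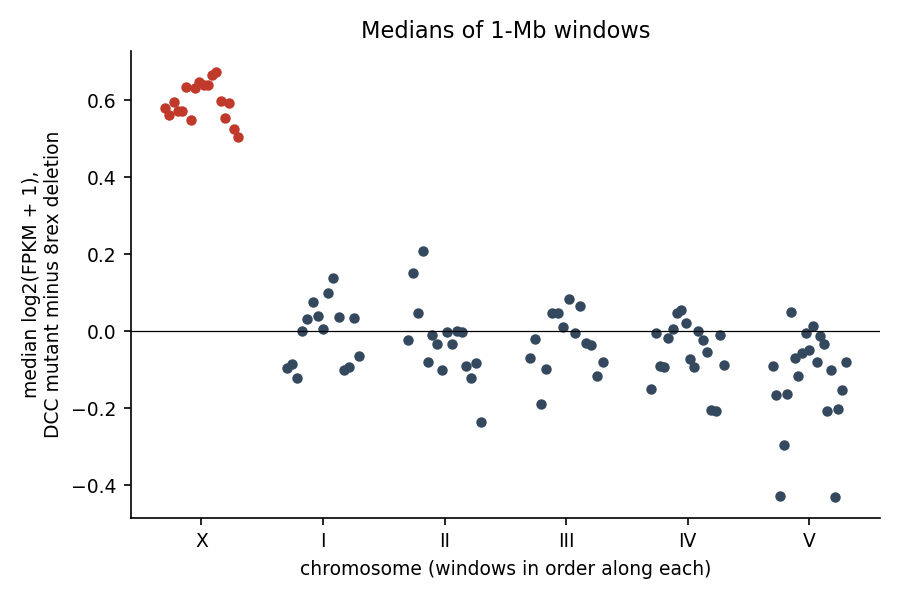
Median difference between the DCC mutant and the 8rex deletion in log2(FPKM + 1) over single-gene protein-coding loci in 1-Mb windows, 1 point per window, in order along each chromosome. The 18 X-linked windows lie between 0.50 and 0.67 and all autosomal windows at or under 0.21.

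In most gene families with members on X and on the autosomes, the X-linked members stood higher than their autosomal relatives. There were 33 lists and families with at least 3 X-linked and 3 autosomal members at single-gene loci (1654 genes, 15 of them in more than 1 list). In 31 the X-linked median lay above the autosomal median. The distance ran from -0.20 to 0.97 over the 33, with a median of 0.66. In 32 of the 33 the X-linked median was above 0, while the autosomal median was above 0 in 12. The members of a family are not replicates of a condition, and these counts are descriptions of the pooled values.

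**Figure D3:**
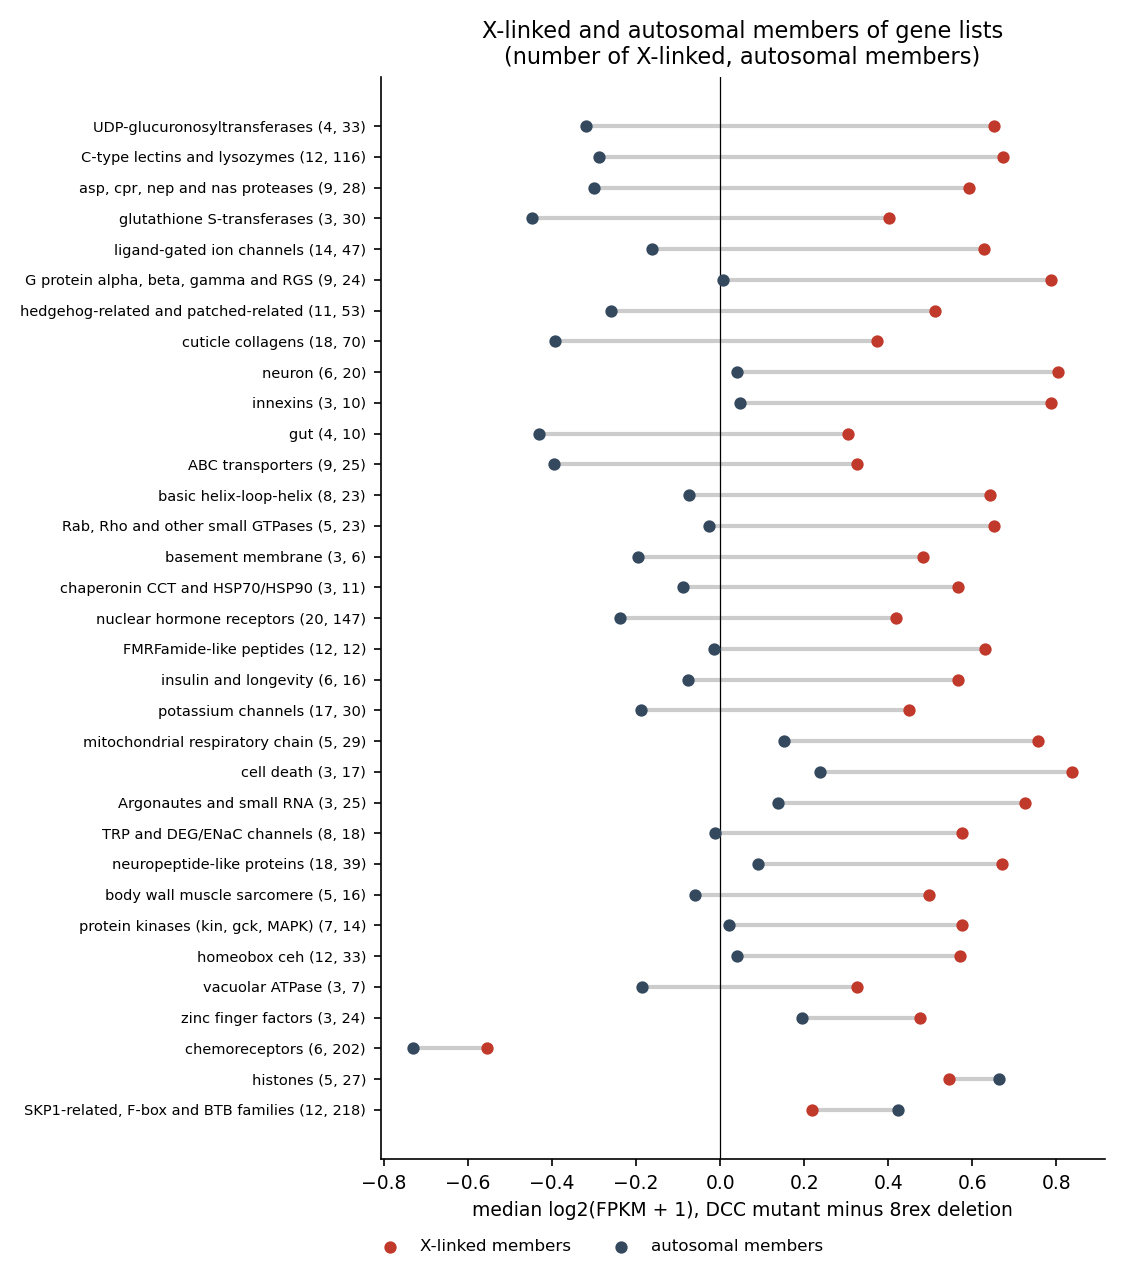
Median difference between the DCC mutant and the 8rex deletion in log2(FPKM + 1) for the X-linked and the autosomal members of 33 lists and families, sorted by the distance between both medians, with member numbers in parentheses. The X-linked median lies to the right in 31 lists, and the order is turned round for histones and for the SKP1-related, F-box and BTB families.

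Neuronal and signalling families showed the distance that single-gene loci as a whole also showed. Over all single-gene loci, 87.5% on X and 46.1% on the autosomes lay above 0. More than 1.5-fold higher were 52% on X and 12.9% on the autosomes. Among genes of neurons, the 6 X-linked members had a median of 0.80 and the 20 autosomal members 0.04. The gene unc-18, whose product works with syntaxin in vesicle release, had 155 FPKM in the DCC mutant, 82.4 FPKM in the 8rex deletion and 83.1 in wild type. The autosomal syntaxin gene unc-64 had 87.3 FPKM in the DCC mutant, 89.2 FPKM in the 8rex deletion and 83.5 in wild type. All 9 X-linked G protein and RGS genes were more than 1.5-fold higher in the DCC mutant (median 0.79), against 2 of 24 autosomal ones (median 0.01). The regulators rgs-6 and rgs-7, both on X, had 50.7 and 64.5 FPKM in the DCC mutant, against 27.9 and 42.1 FPKM in the 8rex deletion. The autosomal subunit genes gpc-2 and gpb-1 had 833 and 659.9 FPKM in the DCC mutant, against 834 and 622 FPKM in the 8rex deletion. Of the FMRFamide-like peptide genes, 11 of 12 on X lay above 0 (median 0.63), against 5 of 12 on autosomes (median -0.01). Both counts lay close to the shares above 0 over all single-gene loci. The X-linked peptide gene flp-11 had 70.0 FPKM in the DCC mutant and 34 FPKM in the 8rex deletion, while the autosomal flp-15 had 33.5 and 33.8 FPKM in the same order. Ligand-gated ion channels had medians of 0.63 over 14 X-linked and -0.16 over 47 autosomal members, potassium channels 0.45 over 17 and -0.19 over 30, and innexins, which form gap junctions, 0.79 over 3 and 0.05 over 10.

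Transcription factor families behaved alike in this respect. The 12 X-linked ceh homeobox genes had a median of 0.57 and the 33 autosomal ones 0.04. Of the 12, 5 were more than 1.5-fold higher and 2 lower, against 52% and 5.67% over X-linked single-gene loci. Of all 45, ceh-40 had the highest difference (1.73) and ceh-63, also on X, the lowest (-4.48). The X-linked ceh-40 stood at 43.5 FPKM in the DCC mutant, 12.4 FPKM in the 8rex deletion and 13.2 in wild type, with a p of 0.0138 for the DCC mutant over wild type in the authors' deposited table. The autosomal ceh-32 stood at 128 FPKM in the DCC mutant and 128 FPKM in the 8rex deletion. The 20 X-linked nuclear hormone receptor genes had a median of 0.42, with 17 above 0, and the 147 autosomal ones a median of -0.24, with 38 above 0. Over all single-gene loci, 87.5% lay above 0 on X and 46.1% on the autosomes. The 8 X-linked bHLH genes had a median of 0.64 and the 23 autosomal ones -0.07.

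Some proteins that work together are encoded partly on X and partly on autosomes. The pairs given here were picked after their values were seen, so they are examples and say nothing about such pairs in general. Of the collagen IV chains of the basement membrane, the X-linked let-2 had 615 FPKM in the DCC mutant and 439.7 FPKM in the 8rex deletion. The autosomal emb-9, at a locus joined with chtb-1, had 658 FPKM in the DCC mutant and 683 FPKM in the 8rex deletion. The X-linked troponin T gene mup-2 had 620.0 FPKM in the DCC mutant and 384 FPKM in the 8rex deletion, and the autosomal tropomyosin gene lev-11 had 716 and 743.4 FPKM in the same order. In touch neurons, the beta-tubulin gene mec-7 on X had 75.8 FPKM in the DCC mutant and 53.4 FPKM in the 8rex deletion, and the alpha-tubulin gene mec-12 on III had 69.1 and 85.8 FPKM. The regulatory subunit gene of protein kinase A, kin-2 on X, had 249 FPKM in the DCC mutant and 173 FPKM in the 8rex deletion. The catalytic subunit gene kin-1 on I lay at a joined locus, which had 119.5 and 118.7 FPKM in the same order.

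Housekeeping and metabolic families followed as well. The 5 X-linked respiratory chain genes had a median of 0.76 and the 29 autosomal ones 0.15. The ATP synthase gene asg-2 on X had 317 FPKM in the DCC mutant and 176 FPKM in the 8rex deletion, and the cytochrome c oxidase gene cox-5A on III had 651 and 549 FPKM in the same order. The X-linked endoplasmic reticulum chaperone gene hsp-3 had 1070.0 FPKM in the DCC mutant and 791 FPKM in the 8rex deletion, against 780.2 and 830.3 FPKM for the autosomal hsp-90. In several families with an autosomal median below 0, the X-linked median still lay above 0. Glutathione S-transferases had medians of 0.40 over 3 X-linked and -0.45 over 30 autosomal members, UDP-glucuronosyltransferases 0.65 over 4 and -0.32 over 33, cuticle collagens 0.37 over 18 and -0.39 over 70, and C-type lectins and lysozymes 0.67 over 12 and -0.29 over 116. The gene ugt-50 on X had 231 FPKM in the DCC mutant and 145 FPKM in the 8rex deletion, while gst-5 on II had 25.9 and 125 FPKM in the same order.

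A few lists departed from this. The 12 X-linked genes of the SKP1-related, F-box and BTB families (adaptors of ubiquitin ligases) had a median of 0.22, under the 0.42 of their 218 autosomal relatives. The 5 X-linked histone genes had 0.54, against 0.66 for the 27 autosomal ones. The linker histone gene his-24 on X stood at 2086 FPKM in the DCC mutant, 1429.6 FPKM in the 8rex deletion and 1459 in wild type. Chemoreceptor genes were low on X and on the autosomes alike, with medians of -0.56 over 6 and -0.73 over 202 members. The chemoreceptor pattern on gene symbols also takes the kinase gene src-1 and other genes, and without the src, srp and srlf names the median over 192 genes was -0.80, against -0.73 over all 208.

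Maternal, early embryo, germline and cell cycle genes also stood higher in the DCC mutant, although most of them are autosomal. Of 26 maternal and early embryo genes at single-gene loci, all autosomal, 13 were more than 1.5-fold higher and none lower, with a median of 0.59. Over all autosomal single-gene loci, 12.9% were more than 1.5-fold higher, 17% more than 1.5-fold lower and 46.1% above 0. The RNA-binding protein gene mex-5 had 125.7 FPKM in the DCC mutant, 49.4 FPKM in the 8rex deletion and 42.4 in wild type, and pos-1 had 239, 107.6 and 93.6 FPKM in the same order. Of 23 cell cycle and replication genes, 10 were more than 1.5-fold higher and none lower (median 0.55), with the cyclin gene cyb-3 at 454 FPKM in the DCC mutant and 268 FPKM in the 8rex deletion. The 25 germline and P granule genes had a median of 0.56 with 24 above 0, and the Piwi gene prg-1 stood at 53.9 FPKM in the DCC mutant and 16.8 FPKM in the 8rex deletion. The 24 proteasome genes, none on X, had a median of 0.50 with 23 above 0. These lists were known from earlier results to stand high in the DCC mutant, so they are no independent evidence of the direction. They go with the smaller share of older embryos in the DCC mutant pool, and genotype and stage cannot be told apart in them. The summed level of 3 early embryo markers, mex-5, pos-1 and spn-4, was 505 FPKM in the DCC mutant, 221 FPKM in the 8rex deletion and 198 in wild type.

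Lower lists in the DCC mutant included genes of detoxification, cuticle and translation. The counts past 1.5-fold that follow stand against 15.2% lower and 19.3% higher over all single-gene loci, or 17% and 12.9% on the autosomes. The share depended on level. Among autosomal loci in the lowest of the 4 groups by mean FPKM, up to 3.89 FPKM, 36.1% were lower and 13.9% higher. Members of these families lay in that group too, so their counts do not separate family from level. Of 33 glutathione S-transferase genes, 13 were more than 1.5-fold lower and 1 higher, and of 33 cytochrome P450 genes 11 were lower and 1 higher. The P450 gene cyp-35C1 had 15.9 FPKM in the DCC mutant, 47.8 FPKM in the 8rex deletion and 46.9 in wild type. The stress-responsive gst-4 had 3.06 FPKM in the DCC mutant, 19 FPKM in the 8rex deletion and 14.8 in wild type. Of 88 cuticle collagen genes, 25 were lower and 6 higher. The lowest of them, sqt-1, had a mean of only 1.36 FPKM. The abundant dpy-14 had 4383 FPKM in the DCC mutant and 6113 FPKM in the 8rex deletion, which is not past 1.5-fold. Of the 47 genes of cytosolic ribosomal proteins 43 lay below 0 (median -0.16), but none was past 1.5-fold. Antioxidant genes and genes that respond to the transcription factor DAF-16 made a list of 22, of which 9 were lower and 3 higher.

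**Figure D4:**
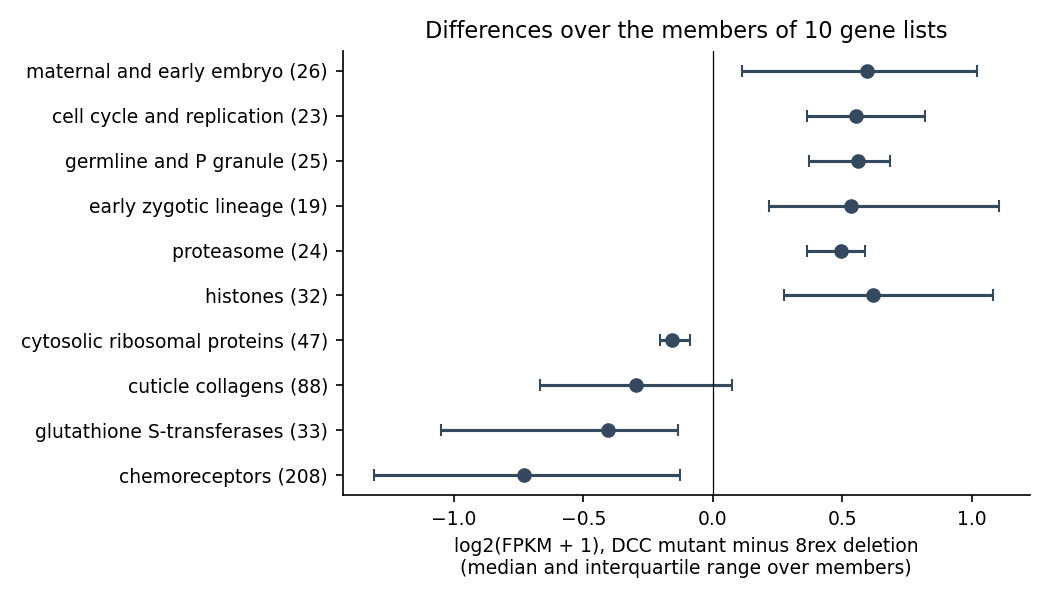
Median difference between the DCC mutant and the 8rex deletion in log2(FPKM + 1) over the members of 10 gene lists at single-gene protein-coding loci, with bars for the interquartile range over members and member numbers in parentheses. The early embryo, cell cycle, germline, proteasome and histone lists lie between 0.50 and 0.62, and the chemoreceptor list is lowest at -0.73.

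Some of the genes that read or carry out the sex decision differed between the mutants, and others stood nearly level. The gene her-1 (WBGene00001842, V, 9697015 to 9702035), whose secreted product inhibits the TRA-2 receptor and so promotes male fate, had 284 FPKM in the DCC mutant, 6.92 FPKM in the 8rex deletion and 48.5 in wild type. It was 41.0-fold higher in the DCC mutant than in the 8rex deletion. The mutants lay on opposite sides of wild type, and neither passed the authors' test against it (p of 0.223 for the DCC mutant and 0.357 for the 8rex deletion in the authors' deposited table). The switch gene xol-1 on X (WBGene00006962, 8041313 to 8044409) had 7.41 FPKM in the DCC mutant, 1.84 FPKM in the 8rex deletion and 0.978 in wild type, low values throughout. Of the X signal elements, which count X chromosomes, the nuclear receptor gene sex-1 had 104.6 FPKM in the DCC mutant and 67.4 FPKM in the 8rex deletion, and the joined locus of ceh-39 and its neighbours had 89.5 and 38.4 FPKM in the same order. The autosomal signal element sea-1, a T-box gene, had 25.5 FPKM in the DCC mutant and 12.34 FPKM in the 8rex deletion, and sea-2 was listed at loci that went opposite ways. The stronger sea-2 locus, joined with K10G6.11, had 380.9 FPKM in the DCC mutant and 167 FPKM in the 8rex deletion, and the weaker one, of sea-2 alone, had 6.89 and 17.3 FPKM in the same order. Downstream of these, fem-1, a gene that promotes male development, had 33.3 FPKM in the DCC mutant and 34.4 FPKM in the 8rex deletion, and tra-3, a protease gene that promotes female development, had 22.5 and 28.9 FPKM in the same order. The joined locus of tra-1, which encodes the last factor of the pathway, had 6.29 FPKM in the DCC mutant and 9.23 FPKM in the 8rex deletion. Other members of the list stood higher in the DCC mutant, with differences of 0.59 for fem-3, 1.04 for fog-1 and 0.67 for fog-3. The joined locus of tra-2 had a difference of 0.66 and that of fem-2 one of 0.02, while mab-3 had -1.03. Levels of fog-3 and mab-3 were low, with means of 1.40 and 1.31 FPKM over the genotypes. Of 11 genes of this list at single-gene loci, 7 were more than 1.5-fold higher and 2 lower, the weak sea-2 locus among them, against 19.3% higher and 15.2% lower over all single-gene loci.

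At many of the genes with the largest differences 1 mutant stood apart from the other genotypes, and at others the wild-type value lay between the mutants. Among loci above 0 in both mutants with a mean of at least 5 FPKM, the 7 highest and 7 lowest were taken on X and on the autosomes. Wild type lay nearer to the 8rex deletion at 18 of these 28 genes and nearer to the DCC mutant at 10. The genes were taken for their extreme differences, and no such share over all loci stands beside this count, so it describes these genes only. In the authors' test against wild type, 4 of the 28 had a deposited p-value of 0.0262 or less for the DCC mutant. For the 8rex deletion, 2 had one of 0.0319 or less. These are not calls by the authors' q-value. On the autosomes the largest difference belonged to ocr-1 (WBGene00003838, V, 10764366 to 10768590), a TRP channel gene, with 255 FPKM in the DCC mutant, 0.676 FPKM in the 8rex deletion and 89.9 in wild type. There the 8rex deletion stood apart, with a p of 0.0155 against wild type in the authors' deposited table. C51E3.10 had 259.9 FPKM in the DCC mutant, 26.8 FPKM in the 8rex deletion and 37.5 in wild type, and Y50D7A.13 had 126.5, 8.93 and 12.03 FPKM in the same order. At these genes the DCC mutant stood apart. The antimicrobial peptide gene cnc-2 had 22.4 FPKM in the DCC mutant, 0.778 FPKM in the 8rex deletion and 1.22 in wild type. The gene srlf-34 had 19.4 FPKM in the DCC mutant and 0.571 FPKM in the 8rex deletion, and R11D1.12 had 35.9 and 3.06 FPKM.

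The lowest autosomal genes were of several kinds. C33A12.19 (WBGene00007890, IV, 9516999 to 9518434) had 0.388 FPKM in the DCC mutant, 149 FPKM in the 8rex deletion and 3.47 in wild type, so only the 8rex deletion was high, with a p of 0.0319 against wild type in the authors' deposited table. The gene fmo-2, which encodes a flavin monooxygenase (WBGene00001477, on IV, 10682524 to 10684367), had 5.40 FPKM in the DCC mutant, 63.4 FPKM in the 8rex deletion and 63.7 in wild type. The gene adh-1, which encodes an alcohol dehydrogenase (WBGene00010790, on V, 11888248 to 11889650), had 6.56 FPKM in the DCC mutant, 63.3 FPKM in the 8rex deletion and 84.8 in wild type. The gene far-3, whose product binds fatty acids and retinol (WBGene00001387, on V, 12996787 to 12997522), had 46.4 FPKM in the DCC mutant, 296 FPKM in the 8rex deletion and 260.3 in wild type. For fmo-2, adh-1 and far-3 the DCC mutant stood apart, by 11.7-fold, 9.66-fold and 6.37-fold below the 8rex deletion, and each had a p of 5e-05 for the DCC mutant over wild type in the authors' deposited table. Y57G11C.38 had 1.43 FPKM in the DCC mutant, 49.1 FPKM in the 8rex deletion and 37.2 in wild type, and C23H5.11 had 3.66, 43.2 and 53.4 FPKM in the same order. The chemoreceptor gene srbc-5 had 0.938 FPKM in the DCC mutant, 19.1 FPKM in the 8rex deletion and 7.82 in wild type, ZK546.19 had 0.566, 21.05 and 4.53 FPKM in the same order, and T06A4.3 had 0.113, 19.2 and 2.88 FPKM. At these genes the wild-type value lay between the mutants.

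On X the highest gene was T23F2.4, with 64.8 FPKM in the DCC mutant, 5.198 FPKM in the 8rex deletion and 5.37 in wild type. Y62H9A.9 had 15.3 FPKM in the DCC mutant, 0.551 FPKM in the 8rex deletion and 0.692 in wild type, and F47G3.4 had 13.5, 1.16 and 2.13 FPKM in the same order. At Y7A5A.10, with 27.02 FPKM in the DCC mutant, 1.90 FPKM in the 8rex deletion and 5.22 in wild type, the wild-type value lay between the mutants. None of these 4 genes passed the authors' test against wild type (p of 0.107 to 0.261 in the authors' deposited table). ZC13.1 had 89.7 FPKM in the DCC mutant, 11.1 FPKM in the 8rex deletion and 114.4 in wild type, and C03F11.2 had 79.6, 8.67 and 36.97 FPKM in the same order, so at both genes the 8rex deletion was the low one. The last, fip-5, has a pair of loci in the table. The weaker had 21.3 FPKM in the DCC mutant and 1.92 FPKM in the 8rex deletion, and the stronger 201 and 67.7 FPKM.

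At single-gene protein-coding loci, X-linked genes more than 2-fold lower in the DCC mutant were few, 65 of 1782, against 266 more than 2-fold higher. Most were weakly expressed, with 41 of the 65 in the lowest of the 4 groups by mean FPKM and 1 in the highest. This does not hold for all of X, since 378 of 839 X-linked single-gene loci of the non-coding RNA biotype were more than 2-fold lower. The 7 lowest genes named by rule follow. The homeobox gene ceh-63 (WBGene00045215, X, 3672274 to 3674058) had 0.380 FPKM in the DCC mutant, 29.8 FPKM in the 8rex deletion and 0.639 in wild type, and gmeb-2 had 1.61, 19.3 and 3.28 FPKM in the same order. At both the 8rex deletion was the high one. At ins-39, an insulin-like peptide gene, the DCC mutant was low, with 1.77 FPKM against 9.44 FPKM in the 8rex deletion and 8.68 in wild type. The kinase adaptor gene tap-1 had 2.12 FPKM in the DCC mutant and 13.2 FPKM in the 8rex deletion, F39F10.4 had 3.64 and 13.5 FPKM, F38B2.6 had 0.938 and 12.5 FPKM, and F22H10.2 had 1.13 and 9.38 FPKM in the same order.

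**Figure D5:**
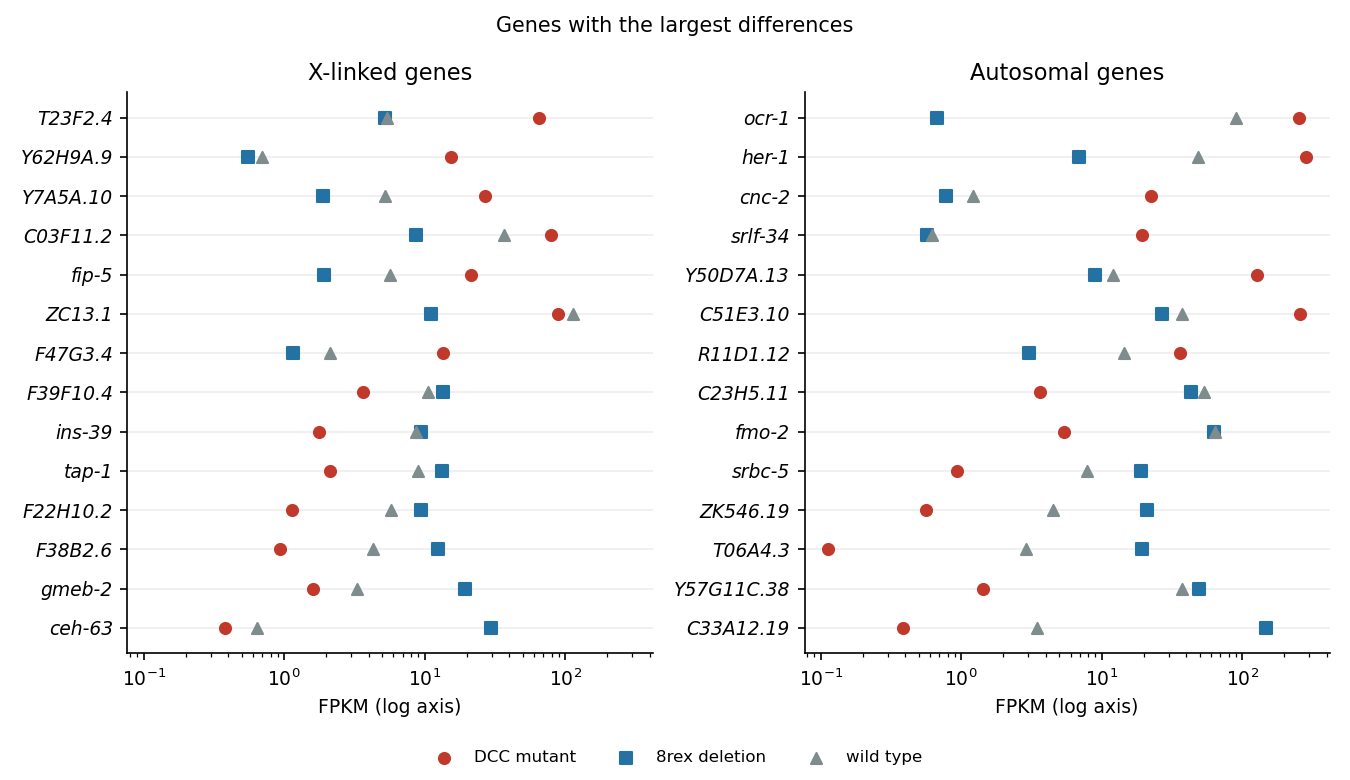
FPKM on a log axis in the DCC mutant, the 8rex deletion and wild type for the 14 X-linked and 14 autosomal genes with the largest differences between the mutants, sorted by that difference. Wild type lies near the 8rex deletion at T23F2.4 and fmo-2, and nearer to the DCC mutant at ocr-1 and ceh-63.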

How the data were processed

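Poly(A) RNA from embryo pools was sequenced, and the authors deposited 1 table for the series of FPKM values, 1 per genotype for each locus, with the replicates already pooled. Per the submitters' processing notes the tools were cutadapt 1.2.1, TopHat2 2.1.1 and Cufflinks 2.2.1, with the ce11 genome. How the replicates were pooled and weighted, and whether counting used strand, is not stated in these sources. The table also holds the authors' log2 fold change, p-value and q-value of each mutant over wild type, per the file headers. The smallest deposited p-value is 5e-05, and a p-value of 1 was read as not tested. FPKM summed to 928618 in the DCC mutant, 932664 in the 8rex deletion and 913501 in wild type, so every level is a share of its genotype's total, and precision cannot be computed from these sums.

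Of 40669 loci, 242 without a gene identifier were left out, and the 3 genotypes had to average at least 1 FPKM. Gene names and biotypes came from Ensembl release 115 (WBcel235, the same assembly as ce11), in which 45923 of 46148 gene identifiers (99.5%) were found. A locus can join neighbouring genes, as 1673 of the loci used (10.7%) did, so families were described at loci with exactly 1 gene, protein-coding. Differences were computed with a pseudocount of 1 FPKM. Since the table holds no replicate values, no test of the DCC mutant against the 8rex deletion was made. Counts past 1.5-fold and 2-fold, medians over lists, and medians over 1-Mb windows with at least 20 loci describe these pools only. Genes were named by rule. The rule took the 7 highest and 7 lowest single-gene loci on X and on the autosomes (mean of at least 5 FPKM, above 0 in both mutants), the members of each list with the highest levels or the extreme differences, and a set of genes of the pathway. Genes outside this rule are said to have been picked after their values were seen. The members and the lists were chosen with earlier results of these data known. An exact 0 can be a failed estimate and is given as listed at 0. The computation used Python 3.11.15 with numpy 2.4.6, pandas 2.3.3, scipy 1.17.1 and matplotlib 3.10.9, and was tested on simulated data.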

Additional observations from a re-analysis of the deposited data

How the results depend on the processing

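X-linked loci stood above autosomal loci by 0.55 (log2), and the distance was 0.65 at loci above 0 in both mutants without a pseudocount, 0.63 at single-gene protein-coding loci and 0 with no filter on level, where 41.3% of X-linked and 53.4% of autosomal loci are listed at 0 in both mutants. The X-linked median of 0.51 was 0.54 with a pseudocount of 0.1 FPKM, 0.62 without a pseudocount, 0 with no filter, 0.56 at a mean of at least 5 FPKM, 0.60 at single-gene loci and 0.58 with autosomal sums scaled to be equal (a factor of 1.05 on the DCC mutant). The autosomal median of -0.04 was 0 with no filter, at a mean of at least 5 FPKM and with equal autosomal sums. Loci more than 2-fold higher in the DCC mutant numbered 1349, against 865 at a mean of at least 5 FPKM and 748 at single-gene loci. Those more than 2-fold lower numbered 2270, against 1416 without a pseudocount, 1128 at a mean of at least 5 FPKM and 859 at single-gene loci, where fewer loci enter. Of all loci past 2-fold, 37.3% were higher in the main setting and 45.9% at loci above 0 in both mutants without a pseudocount. All 18 X-linked windows lay above every autosomal window also under 4 alternatives chosen after seeing the data. Of 59 list medians 10 turned sign under the alternatives run. Of 35 named genes past 1.5-fold 0 did, which was fixed in advance. A pseudocount or filter leaves a gene's sign unchanged, and a factor of 1.05 cannot turn a gene past 1.5-fold. No paired analysis was possible because the table holds 1 pooled value per genotype, and leaving out replicates could not be run for the same reason. Depth is unknown.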

Other observations

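Some of the largest differences between the mutants lay at loci that join several genes, whose values cannot be given to 1 gene; these loci were picked after their values were seen. The locus of elt-2 and elt-4 on X, of which elt-2 encodes the GATA factor of the gut, had 40.8 FPKM in the DCC mutant, 202 FPKM in the 8rex deletion and 35.3 in wild type. It was 4.96-fold higher in the 8rex deletion than in the DCC mutant, with a p of 5e-05 for the 8rex deletion over wild type in the authors' deposited table. Another X-linked locus, of the non-coding gene tts-1 and F09E10.14, had 29.3 FPKM in the DCC mutant, 219.9 FPKM in the 8rex deletion and 44.2 in wild type. On IV the locus of siah-1, an E3 ubiquitin ligase gene, had 88.2 FPKM in the DCC mutant, 273 FPKM in the 8rex deletion and 109 in wild type. At these loci the 8rex deletion was the high genotype. The locus of acdh-1, an acyl-CoA dehydrogenase gene, and C55B7.3 on I had the DCC mutant as the low genotype, with 54.8 FPKM in the DCC mutant, 252 FPKM in the 8rex deletion and 248 in wild type. The locus of sinh-1 and Y57A10A.44 on II had 5.54 FPKM in the DCC mutant, 8.52 FPKM in the 8rex deletion and 118 in wild type, low in both mutants. On the high side in the DCC mutant, the X-linked locus of lgc-58 and its neighbours had 474 FPKM in the DCC mutant, 9.35 FPKM in the 8rex deletion and 15.7 in wild type.

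Single-gene loci of the non-coding RNA biotype gave a different picture from protein-coding ones. Their median difference was -0.30 for the 839 on X, with an interquartile range of -3.62 to 0.58, and -0.49 for the 1401 on autosomes, with -3.82 to 0. Of the X-linked loci of this kind 334 were listed at 0 in the DCC mutant alone of the mutants and 148 in the 8rex deletion alone, and of the autosomal ones 586 in the DCC mutant alone and 205 in the 8rex deletion alone. Zeros also occurred at well expressed loci. With the other genotypes both at 10 FPKM or more, 218 loci had 0 in the DCC mutant, 83 had 0 in the 8rex deletion and 106 in wild type. The DCC mutant values pool 3 replicates and those of the other genotypes 5 each, at unknown depth. Whether this bears on the counts of zeros was not tested.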
